A study of Mus musculus with 9 samples.

Results

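The 10 genes described here encode heat shock proteins and a co-chaperone that heat shock factor 1 (HSF1) controls: Hspa1a, Hspa1b, Hspa8, Hsph1, Dnajb1, Bag3, Hsp90aa1, Hsp90ab1, Hspd1 and Hspe1. They were chosen by symbol, and all 10 were found among the 15343 genes of the deposited table. RNA had been sequenced from wild-type mouse intraperitoneal macrophages, whose strain the labels write as CF7B1/6. Every culture received lipopolysaccharide (LPS), a bacterial product that activates macrophages through TLR4, at 100 ng/ml for 6 h. The LPS group had no pretreatment in its labels. The DHA group had 1 h of 100 µM DHA, an omega-3 fatty acid, before LPS, and the cpdA group had 1 h of 10 µM cpdA, which the labels call an agonist of the fatty acid receptor Gpr120. Each group had 3 libraries, named below by group and replicate number. The labels do not say whether they came from separate animals, so p-values measure the spread between these libraries, which may be technical. Unstimulated macrophages were not analysed here, so the values show the heat shock genes after LPS and not their response to LPS.

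HSF1 is held inactive in the cytosol of unstressed cells by chaperones. When unfolded proteins draw the chaperones away, HSF1 forms trimers, enters the nucleus and binds heat shock elements, which are inverted repeats of the short unit GAA separated by free bases. HSP70 proteins bind exposed hydrophobic stretches of their clients, HSP40 proteins bring clients and trigger ATP hydrolysis, and HSP110 and BAG proteins release the nucleotide. HSP90 takes over kinases, steroid receptors and other clients for late folding steps, and in macrophages its clients include kinases of the TLR4 pathway. HSP60 and HSP10 form the folding chamber of mitochondria and are also targets of HSF1, although they act outside the cytosol.

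Recovered library sizes ranged from 13797079 reads in DHA 1 to 37572822 in cpdA 2. The normalized read counts summed to 2.46e+07 in cpdA 3, against 2.80e+07 to 3.17e+07 in the other libraries. cpdA 3 and LPS 3 stood apart from the other libraries: the first principal component, with 40.5% of the variance, set cpdA 3 aside, and the second, with 28.8%, set LPS 3 aside. All 11 macrophage markers were detected in every library, with a summed normalized read count of 333375 to 585690 in LPS, 563056 to 585243 in DHA and 386816 to 589062 in cpdA. The median macrophage marker lay 0.44 below the mean of LPS 1 and LPS 2 on the log2 scale in cpdA 3. The 6 B cell markers summed to 186 to 325, with Cr2 at 0 in some libraries, and the 2 detected of 6 T and NK cell markers summed to 28.6 to 42.6. Of 6 neutrophil markers 3 were detected, summing to 7289 to 8531 in LPS, 5204 to 6516 in DHA and 3553 to 6256 in cpdA. Of 8 mast cell, basophil and eosinophil markers 6 were detected, summing to 227 to 444. All 10 mesothelial, fibroblast and endothelial markers were detected, summing to 19119 to 35047 in LPS, 20823 to 22192 in DHA and 21072 to 27333 in cpdA. Relative to LPS 1 and LPS 2 averaged, as for the macrophage markers and again in log2, the median mast cell, basophil and eosinophil marker lay at 1.08 in LPS 3 and 0.91 in cpdA 3, against −0.63 to 0.06 in the other 7 libraries. The median mesothelial, fibroblast and endothelial marker lay at 0.77 in LPS 3, and the median neutrophil marker at −1.03 in cpdA 3. These are also the 2 libraries at the ends of the Hspa1a and Hspa1b values described below. The part of these cells in the results was not tested, and in bulk RNA fewer cells of a type cannot be told apart from less RNA per cell.

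Promoter windows of 300 bases, 250 before to 50 after a transcription start, were at hand in RefSeq (GRCm38.p6) for 7 of the 10 genes. They were searched for GAANNTTC and TTCNNGAA, which are 2 inverted heat shock units and read the same on both strands, and for the same extended by 1 more unit (3 units). The 7 genes had 10 windows, of which 7 held 2 units, against 15.1% of all 32851 windows, and 4 held 3 units, against 0.603%. These windows are not independent, since a window of Hspd1 overlaps that of Hspe1, both windows of Hsph1 overlap, and those of Hspa1a and Hspa1b are near-identical. By gene, 6 of the 7 held 2 units and 3 held 3 units. The stretches below show the matches of the genes whose values are described first or that share a promoter, in lower case with the matches in capitals. A match is a description of the letters and not evidence of binding.
Hspa1a: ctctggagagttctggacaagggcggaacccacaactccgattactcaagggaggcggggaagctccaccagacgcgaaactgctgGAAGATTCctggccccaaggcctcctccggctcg
Hspe1: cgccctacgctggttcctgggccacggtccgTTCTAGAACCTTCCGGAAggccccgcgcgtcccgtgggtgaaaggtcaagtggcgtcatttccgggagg
Hsph1: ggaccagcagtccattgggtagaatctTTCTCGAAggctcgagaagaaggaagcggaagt
The Hspa1a stretch lies at chr17:34972227-34972346 on the minus strand. Hspa1b carries the identical letters at chr17:34959309-34959428, also on the minus strand, and over the whole 300-base windows the 2 genes matched at 296 positions (98.7%). The Hspe1 stretch, at chr1:55088028-55088127 on the plus strand, holds 3 overlapping matches, 2 of which extend to 3 units. It is the shared promoter of a divergent pair: a start of Hspd1 lies 216 bases away on the other strand, and 285 of the 300 bases of its window are those of the Hspe1 window. The Hsph1 stretch, at chr5:149636337-149636396 on the minus strand, holds 1 match ahead of the start, and 2 more overlapping matches, 1 with 3 units, lie after it. Bag3 had 1 match, 42 bases after its start, and both windows of Dnajb1 held none.

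The 10 genes differed widely in level. Per kilobase of exon (GENCODE M21 lengths on GRCm38, while the authors aligned to mm9), the mean normalized read count over the 9 libraries was 49278 for Hspa8, the constitutive cytosolic HSP70. Hsp90ab1, the constitutive HSP90, followed at 17090 per kb and Hsp90aa1, the inducible HSP90, at 6145 per kb. The ranges over libraries of these 3 genes did not overlap, at 42119 to 57940, 14887 to 19125 and 4373 to 7005 per kb. Hspd1 (HSP60) at 2405 per kb and Hspe1 (HSP10) at 2279 per kb did overlap, with ranges of 2119 to 2633 and 1938 to 2678. The inducible HSP70 genes Hspa1a and Hspa1b had means of 1283 and 1267 per kb but ran from 282 to 1932 and from 290.4 to 2019. Those wide ranges covered the whole ranges of Hsph1 (HSP110; mean 663 per kb), Bag3 (602 per kb) and Dnajb1 (HSP40; 415 per kb). Of the other neighbours in this order, Hspe1 and Hspa1a missed each other narrowly (1938 against 1932), as did Bag3 and Dnajb1 (482 against 479.7), and Hsph1 and Bag3 overlapped. The narrow gaps depend on the exon lengths of the basic annotation, 774 bases for Hspe1 and 3204 for Dnajb1. The longest transcripts of these genes have 964 and 2996 bases, so the gaps are not firm. Near-identical copies make some of these levels uncertain: of all 50-base words in the longest transcript, the share also found in another gene was 66.3% for Hspa1a, 62.3% for Hspa1b, 58.5% for Hsp90aa1, 52.7% for Hspa8 and 44.8% for Hspd1. It was 8.20% for Hspe1, 4.49% for Hsp90ab1, 0.44% for Dnajb1 and 0 for Hsph1 and Bag3.

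Hspa1a and Hspa1b, the stress-inducible HSP70 pair, varied more between libraries than any other member, and the variation lay within the groups. The normalized read count of Hspa1a was 2968, 3207 and 5732 in LPS 1, 2 and 3. DHA 1, 2 and 3 had 4548, 3366 and 3598, and cpdA 1, 2 and 3 had 4964, 5054 and 836, an order of libraries kept for the genes below. LPS 3 was the highest and cpdA 3 the lowest of the 9, a 6.86-fold span, and all 3 groups overlapped. Hspa1b gave 2893, 2756 and 5658 after LPS alone, 4086, 3108 and 3364 after DHA pretreatment, and 4614, 4670 and 814 after cpdA pretreatment, a 6.95-fold span with the same 2 libraries at the ends. The ratio of Hspa1a to Hspa1b stayed between 1.01 and 1.16 in the 9 libraries, and 58.8% and 62.3% of the 50-base words of their transcripts occur in the other gene, so how reads were divided between them is uncertain. By limma, the log2 change of Hspa1a was 0.0044 with DHA (SE 0.62, 95% interval −1.40 to 1.40, adjusted p = 0.998) and −0.46 with cpdA (SE 0.62, −1.86 to 0.94, adjusted p = 0.767). Hspa1b had a log2 change of −0.03 with DHA (SE 0.61, adjusted p = 0.989) and −0.45 with cpdA (SE 0.61, adjusted p = 0.767). As folds, the interval of Hspa1a with cpdA ran from 0.275 to 1.92, so with these libraries neither a fall to 0.275 times nor a rise to 1.92 times could be told from no difference. The fit shares 1 spread over the 3 groups, so cpdA 3 widens the intervals with DHA too. Without cpdA 3 the log2 change of Hspa1a with DHA was still 0.0044, with an SE of 0.24 and an interval of −0.54 to 0.55.

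**Figure D1:**
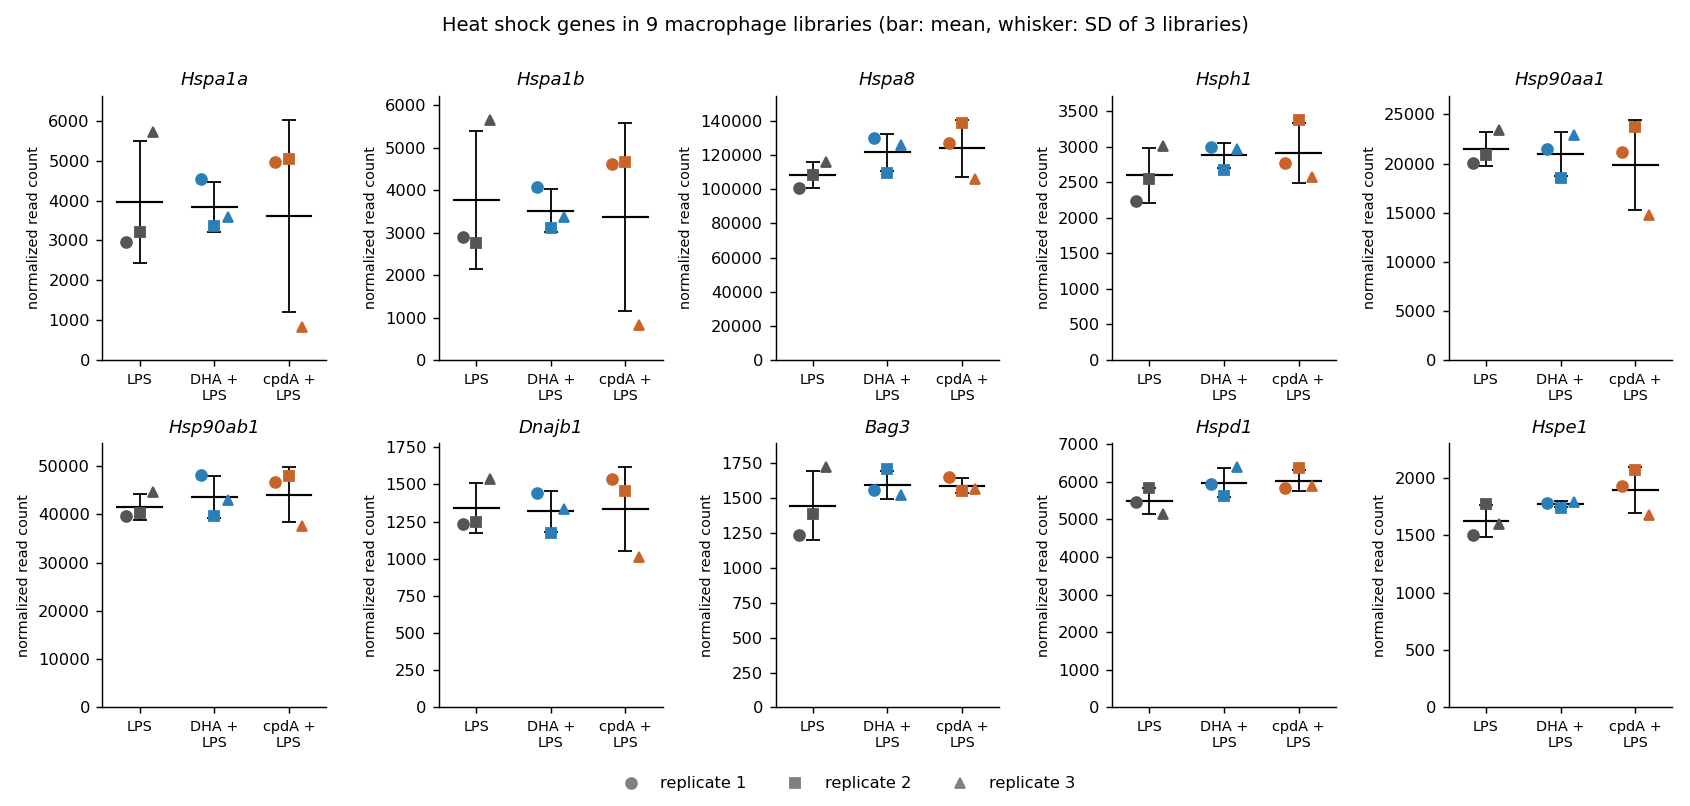
Normalized read count (vertical axis, from 0) of the 10 heat shock genes in the LPS, DHA + LPS and cpdA + LPS libraries; marker shapes are replicate numbers, bars the mean and whiskers the SD of 3 libraries. Hspa1a and Hspa1b have cpdA 3 at 836 and 814 and LPS 3 at 5732 and 5658, and the groups overlap for every gene.

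The other members of the HSP70 system moved far less. Hspa8, which folds nascent and misfolded proteins in unstressed cells, gave 100832, 108374 and 115792 after LPS alone, 129728, 109526 and 125657 after DHA pretreatment, and 127283, 138707 and 105848 after cpdA pretreatment. The lowest value was LPS 1 and the highest cpdA 2, and DHA 2 and cpdA 3 lay within the LPS range. Its log2 change was 0.17 with DHA (SE 0.18, −0.23 to 0.56, limma adjusted p = 0.690) and 0.19 with cpdA (SE 0.18, −0.21 to 0.59, adjusted p = 0.655). Hsph1, the HSP110 exchange factor of HSP70, gave 2244, 2542 and 3015 after LPS alone, 3000.5, 2681 and 2968 after DHA pretreatment, and 2776, 3381 and 2575 after cpdA pretreatment. Only LPS 1 and LPS 2 lay below every treated library, while LPS 3 lay above all but cpdA 2. The log2 change of Hsph1 was 0.16 in both comparisons (SE 0.14, limma adjusted p = 0.619 with DHA and 0.615 with cpdA).

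Dnajb1, the inducible HSP40 that also helps return HSF1 to its inactive state, gave 1236, 1249 and 1537 after LPS alone, 1445, 1175 and 1338 after DHA pretreatment, and 1534, 1455 and 1012 after cpdA pretreatment. As for the Hspa1 pair, LPS 3 was highest and cpdA 3 lowest. The log2 change of Dnajb1 was −0.02 with DHA and with cpdA (SE 0.17, limma adjusted p = 0.964 and 0.966). Bag3, the co-chaperone that hands HSP70 clients to autophagy, gave 1235, 1383 and 1719 after LPS alone, 1556, 1707 and 1519 after DHA pretreatment, and 1647, 1550.5 and 1566 after cpdA pretreatment. Here cpdA 3 did not stand apart: the 3 cpdA libraries had a log2 SD of 0.05, against 1.49 for Hspa1a in the same libraries. The log2 change of Bag3 was 0.15 in both comparisons (SE 0.12, limma adjusted p = 0.578 with DHA and 0.599 with cpdA).

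The HSP90 pair showed small changes. Hsp90aa1, the inducible form, gave 20107, 20889 and 23452 after LPS alone, 21503, 18545 and 22877 after DHA pretreatment, and 21139, 23684 and 14786 after cpdA pretreatment. cpdA 3 was again the lowest, and the other 8 libraries lay within 18545 to 23684. The log2 change of Hsp90aa1 was −0.04 with DHA (SE 0.19, −0.46 to 0.39, limma adjusted p = 0.944) and −0.14 with cpdA (SE 0.19, −0.56 to 0.29, adjusted p = 0.771). The normalized read counts of cpdA 3 also had the smallest sum of all libraries, and under quantile scaling the change with cpdA was 0.0495. Hsp90ab1, the constitutive form, gave 39724, 40393 and 44574 after LPS alone, 48195, 39571 and 42972 after DHA pretreatment, and 46783, 47875 and 37516 after cpdA pretreatment. Its lowest library was cpdA 3 and its highest DHA 1, and the groups overlapped. The log2 change of Hsp90ab1 was 0.07 with DHA and 0.08 with cpdA (SE 0.16, limma adjusted p = 0.876 and 0.859).

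For the mitochondrial folding chamber, cpdA 3 was not the lowest library. Hspe1, the HSP10 lid, gave 1499.9, 1771 and 1601 after LPS alone, 1783, 1741 and 1795 after DHA pretreatment, and 1931, 2073 and 1679 after cpdA pretreatment. LPS 2 lay within the DHA and cpdA ranges, and the other 2 LPS libraries lay below all 6 treated ones. Its log2 change was 0.13 with DHA (SE 0.10, −0.10 to 0.36, limma adjusted p = 0.575) and 0.22 with cpdA (SE 0.10, −0.01 to 0.45, adjusted p = 0.357), the smallest adjusted p of the 10 genes in either comparison. Hspd1, the HSP60 barrel, gave 5463, 5833 and 5134.5 after LPS alone, 5936, 5609.8 and 6380.1 after DHA pretreatment, and 5829, 6361 and 5897 after cpdA pretreatment. LPS 3, the highest library for the Hspa1 pair, was the lowest for Hspd1. The log2 change of Hspd1 was 0.13 with DHA and 0.14 with cpdA (SE 0.10, limma adjusted p = 0.587 and 0.551). The ratio of Hspd1 to Hspe1, the pair with the shared promoter shown above, ranged from 3.02 to 3.64 over the 9 libraries.

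With all 9 libraries, 0 of the 10 genes passed limma's adjusted p of 0.05 for DHA against LPS, where 0.0072% of the 13895 genes tested passed. The count was also 0 for cpdA against LPS, where 0.0072% of all genes passed (0 genes with the replicate number as a block). It was 0 as well for cpdA against DHA, where no gene passed, and for any difference among the 3 groups, where 0.0072% passed. Since so few genes passed limma at all, these counts of 0 say little about the heat shock genes. Before adjustment limma called 0 members at the same threshold in each test, against 14.2%, 14.6%, 1.02% and 11.2% of all genes. The quasi-likelihood test of edgeR called 0 members, against 0.0216% of all genes with DHA and 0.0072% with cpdA. At the unadjusted level it had 1 member, Hspe1 with cpdA (log2 change 0.23, adjusted p = 0.301), against 15% of all genes with DHA and 15.4% with cpdA. DESeq2 called 2.31% of the genes it gave an adjusted p with DHA and 3.26% with cpdA, and called 0 members in either. At the unadjusted level DESeq2 also had 0 members, against 15.5% and 15.6% of all genes. The median log2 change of the 10 genes was 0.10 with DHA and 0.11 with cpdA, against −0.00067 and −0.0043 over all genes tested. Of the 10 changes, 7 were positive with DHA and 6 with cpdA, against 49.8% and 49.4% of all genes. Both comparisons share the LPS libraries, so their signs are not independent. For none of the 10 did the libraries of 1 group lie wholly above or below those of another, which 13% and 15% of all genes did with DHA and 10.7% and 12.2% with cpdA. Between cpdA and DHA the shares were 3.04% and 2.61%. Between cpdA and DHA, the log2 differences of the 10 genes ran from −0.46 for Hspa1a and −0.43 for Hspa1b to 0.09 for Hspe1, with a median of 0.0018. The DHA and cpdA doses differ, at 100 and 10 µM.

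**Figure D2:**
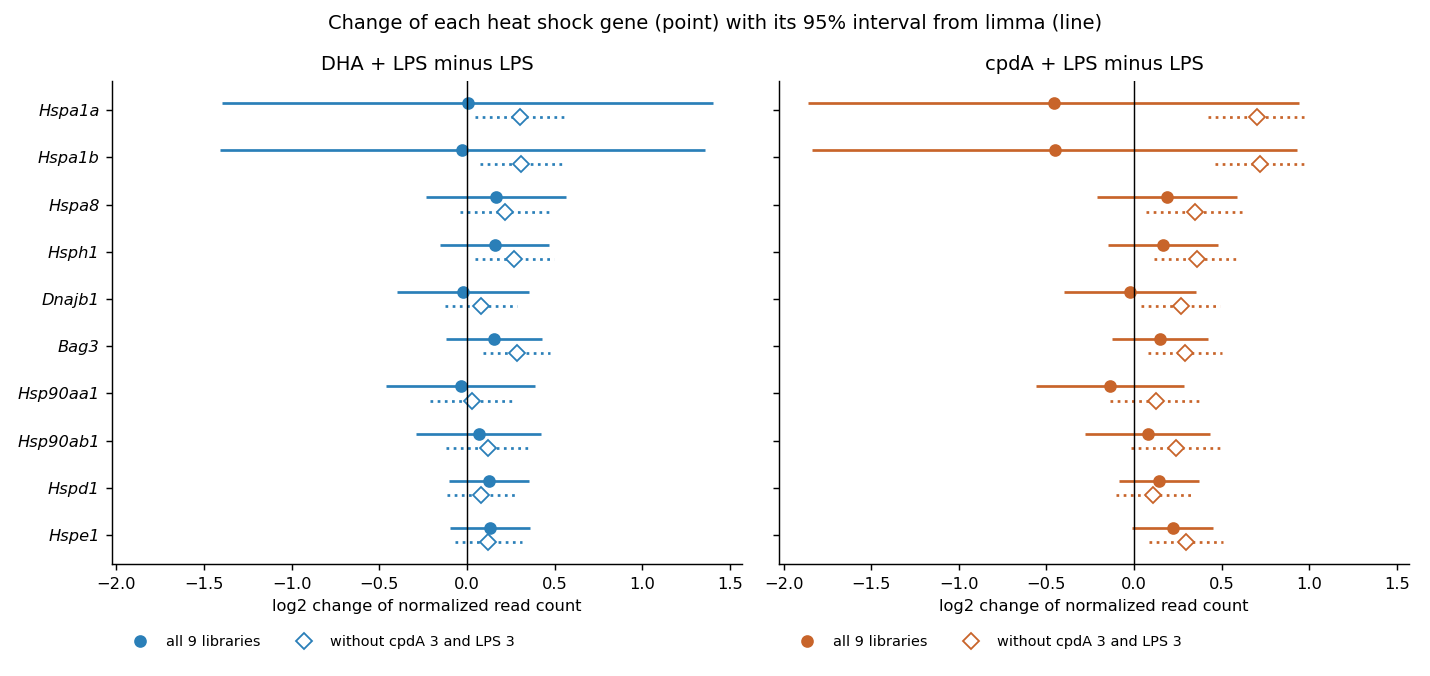
Log2 change of the normalized read count (horizontal axis) for DHA + LPS and cpdA + LPS against LPS, with 95% intervals from limma; filled circles use all 9 libraries and open diamonds leave out cpdA 3 and LPS 3. The Hspa1a and Hspa1b intervals with cpdA move from both sides of 0 to above it (0.42 to 0.98 and 0.46 to 0.97), and leaving out these libraries moves the changes upward by construction.

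The Hspa1 result turned on cpdA 3 and LPS 3. These are the lowest treated and the highest control library for both genes, so leaving them out moves the cpdA change upward by construction. Without both, Hspa1a rose with cpdA by 0.70 on the log2 scale (SE 0.13, 1.62-fold, interval 1.34 to 1.97, limma adjusted p = 0.0183). Hspa1b rose by 0.72 (SE 0.12, 1.64-fold, 1.37 to 1.97, adjusted p = 0.0119). With the replicate number as a block in the same 7 libraries, an alternative chosen after seeing the data in which DHA 3 has no partner, the changes were 0.70 (SE 0.13, limma adjusted p = 0.0428) and 0.72 (SE 0.11, adjusted p = 0.0190), and 1.23% of all genes were called. Without the block these were 2 of 10 members, against 1.6% of all genes called in either direction and 0.712% called higher, and 7 had an unadjusted p under 0.05, against 11.7% of all genes. The 2 called genes correlated at 0.997 over the 9 libraries and share much of their sequence, so they are not 2 separate results. The p-values take no account of which libraries were left out. LPS 3, with a normalized read count of 5732 for Hspa1a, lay above cpdA 1 and cpdA 2, and without cpdA 3 alone (log2 change 0.40 for Hspa1a and 0.38 for Hspa1b) or without LPS 3 alone neither gene was called. With DHA, 0 of 10 passed in limma without these 2 libraries, where 6.79% of all genes passed, and 4 had an unadjusted p under 0.05, against 23.2% of all genes. The changes of Hspa1a and Hspa1b with DHA were then 0.30 and 0.31 (adjusted p = 0.143 and 0.111), and that of Bag3 was 0.28 (adjusted p = 0.0726). In the test for any difference among groups the 2 Hspa1 genes passed, against 3.27% of all genes. The median change of the 10 genes was 0.17 with DHA and 0.29 with cpdA, against −0.0077 and −0.0016 for all genes, and all 10 changes were positive in both. All cpdA libraries then lay above all LPS libraries for 9 of the 10, every one but Hspd1, against 24.5% of all genes. All DHA libraries did so for 5 (Hspa1a, Hspa1b, Hspa8, Hsph1 and Bag3), against 19.1%, and all cpdA libraries lay above all DHA libraries for 4 (Hspa1a, Hspa1b, Dnajb1 and Hspe1), against 9.57%. These signs and counts follow in part from the libraries left out. Of the 9 libraries, cpdA 3 was the lowest for 5 members and LPS 3 the highest for 4, though LPS 3 was the lowest for Hspd1. No such count was made over all genes. The members also vary together, so they are not independent. cpdA minus DHA was 0.40 for Hspa1a and 0.41 for Hspa1b (adjusted p = 0.754 for both), and 0 of 10 members and no gene of the table passed limma there, with 2 members at an unadjusted p under 0.05, against 5.04% of all genes. That these 2 libraries stand apart was known from earlier results of these data, and why they do was not tested.

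Ratios within a library compare an inducible gene with its constitutive partner without regard to library scaling. Hspa1a and Hspa1b together came to 0.0581, 0.0550 and 0.0984 of the Hspa8 count after LPS alone, 0.0666, 0.0591 and 0.0554 after DHA pretreatment, and 0.0753, 0.0701 and 0.0156 after cpdA pretreatment. The ratio was highest in LPS 3 and lowest in cpdA 3, and the DHA libraries lay near LPS 1 and LPS 2. The ratio of Hsp90aa1 to Hsp90ab1 was 0.506, 0.517 and 0.526 after LPS alone, 0.446, 0.469 and 0.532 after DHA pretreatment, and 0.452, 0.495 and 0.394 after cpdA pretreatment. All 3 cpdA libraries lay below all 3 LPS libraries, and so did DHA 1 and DHA 2, while DHA 3 lay above them. The groups' means were 0.516 ± 0.010 (SD, n = 3) in LPS, 0.482 ± 0.045 in DHA and 0.447 ± 0.050 in cpdA, a description with no test. Of single genes, 12.2% had all cpdA libraries below all LPS libraries, and no such share was computed for ratios.

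**Figure D3:**
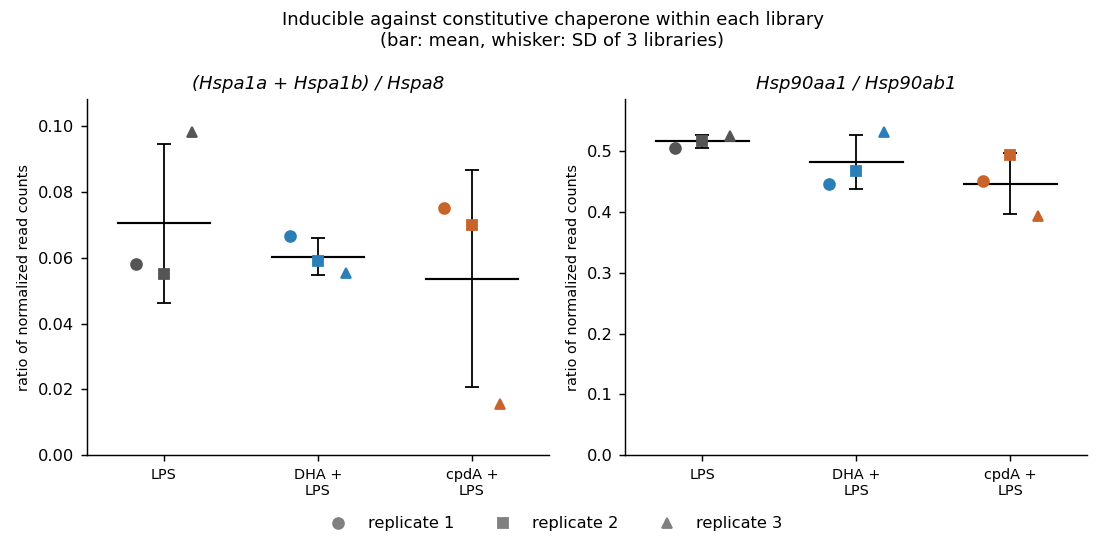
Ratio of normalized read counts within each library (vertical axes, from 0) for Hspa1a plus Hspa1b over Hspa8 and for Hsp90aa1 over Hsp90ab1; marker shapes are replicate numbers, bars the mean and whiskers the SD of 3 libraries. The first ratio runs from 0.0156 in cpdA 3 to 0.0984 in LPS 3, and the second is lower in all 3 cpdA libraries (0.394 to 0.495) than in the LPS libraries (0.506 to 0.526).

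The members varied together in part. Over the 9 libraries, 41 of the 45 pairs of members had a positive Pearson correlation of log2 values, from −0.12 to 0.997 with a median of 0.59; the libraries share their scaling, and cpdA 3 and LPS 3 weigh on each value. Of the 10 genes, 5 were lowest in cpdA 3 (Hspa1a, Hspa1b, Hsp90aa1, Hsp90ab1 and Dnajb1) and 4 in LPS 1 (Hspa8, Hsph1, Hspe1 and Bag3). LPS 3 was highest for 4 (Hspa1a, Hspa1b, Dnajb1 and Bag3) and cpdA 2 for 4 (Hspa8, Hsph1, Hsp90aa1 and Hspe1). Neither these counts nor the share of positive pairs was computed over all genes, so they cannot be called particular to the heat shock genes. Among 10164 genes outside the set with a mean of at least 100, the 5 whose pattern over the 9 libraries was most like the members' mean z-score were Vim (r = 0.954), Trim6 (0.909), Ahsa2 (0.896), Man2a1 (0.890) and Mthfd2 (0.887). Vim, which encodes the intermediate filament vimentin, gave 62234, 64625 and 69902 after LPS alone, 74932, 66461 and 68467 after DHA pretreatment, and 76475, 75310.5 and 58594 after cpdA pretreatment.

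The heat shock factors themselves showed no called change. Hsf1 gave 779, 763 and 719 after LPS alone, 740.1, 652 and 592 after DHA pretreatment, and 742, 665 and 715 after cpdA pretreatment. Its log2 change was −0.19 with DHA (SE 0.10, limma adjusted p = 0.405) and −0.09 with cpdA (SE 0.10, adjusted p = 0.703). Hsf2, a second heat shock factor that can form mixed trimers with HSF1, gave 488, 491 and 529 after LPS alone, 564, 506 and 609.9 after DHA pretreatment, and 543, 577 and 542 after cpdA pretreatment. All cpdA libraries lay above all LPS libraries for Hsf2, as they did for 10.7% of all genes, with a log2 change of 0.14 (SE 0.09, limma adjusted p = 0.514), and the change with DHA was 0.15 (adjusted p = 0.478). The list of heat shock factors and their binding proteins had 4 genes tested of 5 and none called.

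Beyond the members, 7 lists of the heat shock response and its chaperones held 86 genes, of which 83 were tested. In limma with all libraries 0 were called in either comparison, against 0.0072% of all genes in each. At an unadjusted p under 0.05 limma had 6 of the 83 for DHA, against 14.2% of all genes, and 7 for cpdA, against 14.6%. edgeR called 0 with DHA, against 0.0216%, and 0 with cpdA, against 0.0072%, and had 8 and 9 unadjusted, against 15% and 15.4%. DESeq2 called Dnajb4 with DHA, against 2.31% of all genes, and Dnajb4 and Fkbp4 with cpdA, against 3.26%, each of them higher. With cpdA the DESeq2 adjusted p was 0.0135 for Fkbp4, the smallest of the 83, and 0.034 for Dnajb4. The median log2 change was −0.02 with DHA and −0.05 with cpdA. Without cpdA 3 and LPS 3, limma called 2 of the 83 with DHA, Dnajb4 and Zfand2a, both higher, against 6.79% of all genes, and 0 with cpdA, against 1.6%. At the unadjusted level it then had 11 with DHA, against 23.2%, and 9 with cpdA, against 11.7%. With the replicate number as a block as well, 0 of the 83 were called in either comparison, against 3.95% of all genes with DHA and 1.23% with cpdA. By list, the numbers of positive changes with DHA and cpdA were 7 and 6 of 20 further HSF1-inducible genes, 7 and 7 of 17 in the HSP70 system, and 4 and 3 of 10 HSP90 co-chaperones. They were 4 and 3 of 14 subunits of TRiC and prefoldin, the cytosolic folding chamber and its partner, 10 and 10 of 13 mitochondrial chaperones and proteases, and 4 and 3 of 5 small heat shock proteins. Of all 83, 39 and 34 were positive, against 49.8% and 49.4% of all genes. Without cpdA 3 and LPS 3, 34 and 51 of the 83 were positive, against 48.6% and 49.5% of all genes. For the 20 HSF1-inducible genes the numbers were then 11 and 18, so their signs with cpdA also turned on those 2 libraries.

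Dnajb4, an HSP40 co-chaperone, was singled out after its values were seen. It gave 361, 368.8 and 369.4 after LPS alone, 502, 472.5 and 522 after DHA pretreatment, and 449, 467 and 543 after cpdA pretreatment. All 6 treated libraries lay above all 3 LPS libraries, cpdA 3 and LPS 3 included. Its log2 change was 0.44 with DHA (SE 0.10, limma adjusted p = 0.201, over its alternatives 0.0176 to 0.603) and 0.40 with cpdA (SE 0.10, adjusted p = 0.224, over its alternatives 0.034 to 0.465). Zfand2a, an HSF1 target that acts on the proteasome and is also called AIRAP, gave 1849.9, 1840.3 and 1483 after LPS alone, 2200.2, 2485 and 2333 after DHA pretreatment, and 2221, 2046 and 2777 after cpdA pretreatment. It too lay higher in all 6 treated libraries, with log2 changes of 0.45 and 0.44 (SE 0.14, limma adjusted p = 0.261 and 0.233). Among all genes, 13% had all DHA libraries above all LPS libraries and 10.7% had all cpdA libraries above them. The share with both at once was not computed.

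Hspb1, the small heat shock protein HSP27, gave 268.5, 227 and 894 after LPS alone, 276, 274 and 258 after DHA pretreatment, and 271, 269 and 507 after cpdA pretreatment. It was high in LPS 3, as the Hspa1 pair was, and also high in cpdA 3, where that pair was at its lowest. Its log2 change was −0.49 with DHA and −0.19 with cpdA (SE 0.47, limma adjusted p = 0.650 and 0.893), and without those 2 libraries 0.13 in both. Dedd2 gave 68.5, 79.5 and 106 after LPS alone, 91.4, 115 and 117 after DHA pretreatment, and 108, 95.1 and 171 after cpdA pretreatment, with limma adjusted p = 0.536 and 0.373.

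In the HSP70 system, 2 genes were lower in every treated library, and limma called neither. Dnajc7, a co-chaperone that binds both HSP70 and HSP90, gave 2368, 2435 and 2543 after LPS alone, 1986, 2021 and 2108 after DHA pretreatment, and 1999.7, 2106 and 1604.5 after cpdA pretreatment. Every treated library lay below every LPS library, with log2 changes of −0.26 and −0.37 (SE 0.11, limma adjusted p = 0.329 and 0.230). Dnaja2, a constitutive HSP40, gave 6787.5, 6578 and 9239 after LPS alone, 5925, 4945 and 6096 after DHA pretreatment, and 5888, 6532 and 4379.7 after cpdA pretreatment. Dnaja2 too lay lower in every treated library, with log2 changes of −0.40 and −0.43 (SE 0.19, limma adjusted p = 0.368 and 0.334). Bag4 had log2 changes of 0.30 and 0.18 with overlapping groups (limma adjusted p = 0.508 and 0.702). Among all genes, 15% had all DHA libraries below all LPS libraries and 12.2% had all cpdA libraries below them, and the share with both at once was not computed.

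Hspa9, the mitochondrial HSP70, gave 8262, 8195.5 and 6939 after LPS alone, 9229, 7980.1 and 9704 after DHA pretreatment, and 9166, 9437 and 9079.8 after cpdA pretreatment. All cpdA libraries lay above all LPS libraries, as they did for 10.7% of all genes, with a log2 change of 0.25 (SE 0.12, limma adjusted p = 0.377), and the change with DHA was 0.20 (adjusted p = 0.461). Hscb, which serves iron-sulfur cluster assembly, had log2 changes of 0.45 and 0.49 (limma adjusted p = 0.407 and 0.368), and Clpp, the proteolytic subunit of a matrix protease, changes of 0.15 and 0.29 (adjusted p = 0.724 and 0.464). Of the HSP90 co-chaperones, Fkbp5 had log2 changes of −0.20 and −0.07, Ppid by 0.20 and 0.21 and Tsc1 by 0.12 and 0.15, with limma adjusted p from 0.403 to 0.802. Of the prefoldin subunits, Pfdn1 had log2 changes of −0.16 and −0.23, Pfdn2 by −0.19 and −0.18, Pfdn4 by −0.17 and −0.07, and Vbp1 by −0.09 and −0.23, with limma adjusted p from 0.371 to 0.831. Hspb11 had log2 changes of 0.16 and 0.33 (adjusted p = 0.758 and 0.490).

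**Figure D4:**
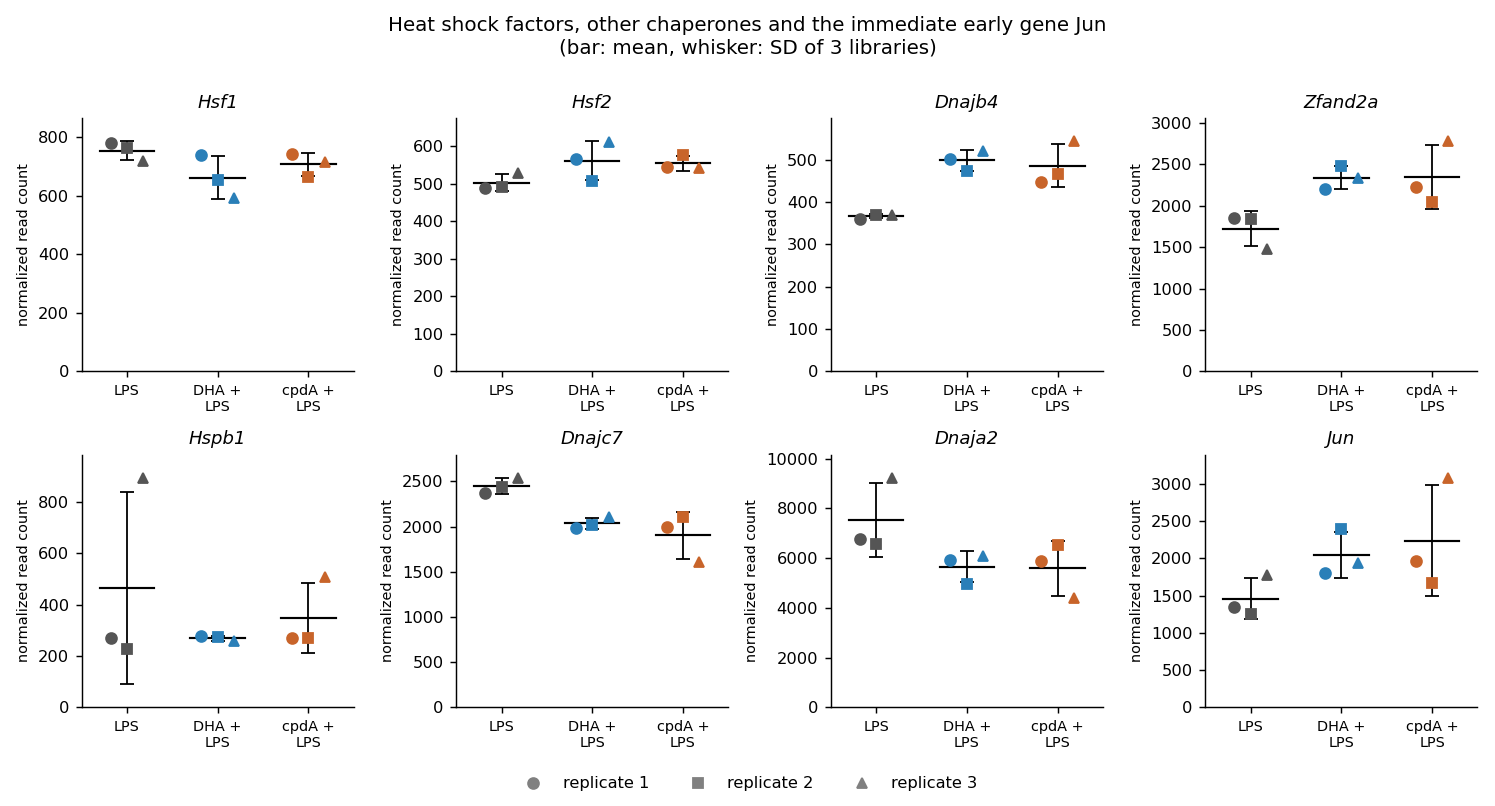
Normalized read count (vertical axis, from 0) of the factors Hsf1 and Hsf2, of 5 other chaperone or heat shock genes and of Jun in the 3 groups; marker shapes are replicate numbers, bars the mean and whiskers the SD of 3 libraries. Dnajb4 and Zfand2a are higher and Dnajc7 and Dnaja2 lower in all 6 treated libraries than in the 3 LPS libraries, and Hspb1 is high in LPS 3 (894) and cpdA 3 (507).

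Genes listed as raised by tissue dissociation, and transcripts listed for RNA quality, were set beside these results, since heat shock genes are also raised when tissue is dissociated. Every culture received LPS, and some a pretreatment, so handling cannot be told apart from responses to these in the immediate early genes. Of 15 immediate early genes 14 were tested and 0 were called with all libraries in limma, with 0 at an unadjusted p under 0.05 for DHA, against 14.2% of all genes, and 2 for cpdA, against 14.6%. Jun, a subunit of the factor AP-1, gave 1344.5, 1259.5 and 1773 after LPS alone, 1797, 2395 and 1941 after DHA pretreatment, and 1959.5, 1673 and 3082 after cpdA pretreatment, with log2 changes of 0.49 and 0.58 (SE 0.23, limma adjusted p = 0.368 and 0.298). Zfp36, whose product destabilizes inflammatory mRNAs, had log2 changes of −0.55 and −0.57 (limma adjusted p = 0.365 and 0.344). Without cpdA 3 and LPS 3, limma called 4 of the 14 with DHA, against 6.79% of all genes: Jun (0.64) and Fos (0.81) were higher, and Ier3 (−0.55) and Btg2 (−0.36) were lower. With the replicate block as well, 2 of them were called, Jun and Ier3, against 3.95% of all genes. The median of the 5 noncoding transcripts detected of the 14 entries of the RNA quality list lay 0.71 above the mean of LPS 1 and LPS 2 on the log2 scale in LPS 3 and 0.97 above it in cpdA 3, against −0.28 to 0.40 in the other 7 libraries. Neat1, a nuclear noncoding RNA, was at 46513.8 in cpdA 3, against 7382 to 15888 in the other 8, and the changes of Neat1 were 0.14 and 0.64 (limma adjusted p = 0.927 and 0.621). Malat1 had log2 changes of −0.23 and 0.27 and Kcnq1ot1 by −0.56 and −0.50, with limma adjusted p from 0.359 to 0.774. The median of this list was thus highest in the 2 libraries at the ends of the Hspa1 range, but its single genes were not all highest there: Kcnq1ot1 was at 2744 in cpdA 3, below LPS 2 (3219.7), Malat1 at 3306 in LPS 3, below cpdA 2 (3964), and Neat1 at 14749.6 in LPS 3, below DHA 2 (15888). The part of RNA state or handling in the Hspa1 values was not tested.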

How the data were processed

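The deposited table gives 1 normalized read count per gene and library (signal), made by the authors by dividing read counts by a size factor per library. The submitters' processing notes name CASAVA 1.8.2, Bowtie2, DESeq and mm9. How reads were counted, with which annotation and strand setting, is not given in the sources used here. The labels' growth and extraction protocols describe other cells and histone-bound DNA and were not used. In every library 100% of the values were whole multiples of the worth of 1 read within 0.05, and whole reads were recovered, 13797079 to 37572822 per library.

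Genes that reached 10 normalized reads in 3 or more libraries were kept (13895 of 15343). Values were analysed as log2(value + 1), which understates changes of low genes, in limma 3.58.1 (R 4.3.3, statmod 1.5.0). One fit took all 9 libraries, 1 coefficient per group and eBayes with its trend and robust settings on. P-values were adjusted by Benjamini-Hochberg over all genes kept, with a threshold of 0.05. edgeR 4.0.16 (quasi-likelihood) and DESeq2 1.42.0 were run on the recovered reads. The scripts were tested on simulated data. The members and lists were chosen with earlier results of these data known.

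The text names all members, Hsf1, Hsf2, genes of the lists called in a comparison with LPS, and the 2 with the largest change in each list and comparison among those averaging 50 or more in their higher group. It also names the 5 genes most like the members in pattern. Genes called without cpdA 3 and LPS 3, or by DESeq2, were named after their values were seen. Of the 125 list entries, 114 were found, counting the members. Same-number libraries of LPS and cpdA deviated from their group means together (r = 0.387, 0.234 and 0.437 across genes), which met a rule of over 0.1 in each pair. This does not show pairing, since different-number libraries also did so: r was 0.292 for cpdA 1 with LPS 2 and 0.264 for cpdA 2 with LPS 1. Number 3 with number 1 or 2 gave −0.432 to −0.306, as the library that stands apart is number 3 in both groups. Other group pairs had a same-number value below 0.1. Alternatives were other pseudocounts, filters, scalings, moderation, count tests and thresholds, the replicate block, only the groups compared, each library left out, cpdA 3 and LPS 3 left out together, and Hspa1a and Hspa1b summed. The replicate block without cpdA 3 and LPS 3 was added after seeing the data. Sequences are from RefSeq, GRCm38.p6. No array or other data type was used.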

Additional observations from a re-analysis of the deposited data

How the results depend on the processing

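With 3 libraries a group and 2 that stand apart, the interval with all libraries ran from a log2 change of −1.40 to 1.40 for Hspa1a with DHA. The fit shares 1 spread over the 3 groups, so that width comes in part from cpdA 3, which is in neither group compared. Without cpdA 3 the interval with DHA was −0.54 to 0.55 for Hspa1a and −0.62 to 0.57 for Hspa1b. Changes inside these intervals could not be told from no difference. The number of members called stayed at 0 under every alternative that kept cpdA 3 or LPS 3. Without both it was, in limma, 2 with cpdA and 2 for any difference among groups, and the median member change with cpdA was 0.29. The number of all genes called, 1 in each comparison with LPS, was for DHA 3 with a filter at 50, 3 with TMM scaling, 0 without trend and robust options, 9 with only the groups compared, 3 with edgeR, 315 with DESeq2, 5 at a threshold of 0.1 and 943 without cpdA 3 and LPS 3. For cpdA it was 0 without trend and robust options, 0 with only the groups compared, 391 with DESeq2, 7 at a threshold of 0.1 and 222 without both libraries. With the replicate block and all 9 libraries, 0 genes were called in either comparison, and 0 members were called with or without the block. A fit chosen after seeing the data, with the block and with both of these libraries left out, called 549 genes with DHA and 171 with cpdA, and 0 and 2 members (Hspa1a at 0.70 and Hspa1b at 0.72 with cpdA). It called 1 member for any difference among groups, and the median member change was 0.29 with cpdA and 0.16 for cpdA minus DHA. Leaving out each library in turn gave 0 to 373 genes for DHA, the highest without cpdA 3, and 0 to 3 for cpdA. Of the 83 other heat shock and chaperone genes, DESeq2 called 1 with DHA and 2 with cpdA, and limma called 1 with DHA without cpdA 3 and 2 without both libraries. DESeq2 gave no adjusted p for some genes, none of them a member.

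Some changes that limma did not call with all 9 libraries turned sign. Of these, Hspa1a and Hspa1b with cpdA were called by limma without cpdA 3 and LPS 3, with and without the block. For Hspa1a with DHA the log2 change was −0.045 in edgeR and −0.044 in DESeq2. Under quantile scaling it was 0.049 for Hspa1b with DHA and 0.087 and 0.0495 for Hsp90aa1 with DHA and cpdA. Without cpdA 3 and LPS 3 the change with cpdA was 0.70 for Hspa1a, 0.72 for Hspa1b, 0.13 for Hsp90aa1, 0.27 for Dnajb1, 0.053 for Fkbp5, 0.13 for Hspb1 and −0.029 for Tsc1. With DHA it was 0.31 for Hspa1b, 0.028 for Hsp90aa1, 0.081 for Dnajb1, −0.039 for Clpp and 0.13 for Hspb1, and cpdA minus DHA was 0.40 for Hspa1a and 0.41 for Hspa1b. With 1 library left out, the change with DHA ranged from −0.17 to 0.30 for Hspa1a, −0.21 to 0.31 for Hspa1b, −0.10 to 0.049 for Hsp90aa1, −0.0095 to 0.13 for Hsp90ab1, −0.089 to 0.081 for Dnajb1, −0.039 to 0.32 for Clpp, −0.86 to 0.13 for Hspb1 and −0.14 to 0.35 for Neat1. With cpdA it ranged from −0.90 to 0.40 for Hspa1a, −0.88 to 0.38 for Hspa1b, −0.28 to 0.062 for Hsp90aa1, −0.14 to 0.16 for Dnajb1, −0.56 to 0.43 for Hspb1, −0.080 to 1.00 for Neat1, −0.12 to 0.0021 for Pfdn4 and −0.015 to 0.23 for Tsc1. The cpdA minus DHA range was −0.90 to 0.40 for Hspa1a and −0.85 to 0.41 for Hspa1b. With the block and without both libraries the change with DHA was 0.34 for Hspa1b, 0.068 for Dnajb1, −0.083 for Clpp and 0.16 for Hspb1. With cpdA it was 0.13 for Hsp90aa1, 0.27 for Dnajb1, 0.053 for Fkbp5, 0.13 for Hspb1 and −0.029 for Tsc1, and cpdA minus DHA was 0.36 for Hspa1a and 0.38 for Hspa1b. The cause of these turns was not tested beyond the libraries left out. No scaling moved the median of all genes by over 0.1.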
